A study of Mus musculus with 12 samples.

Results

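The 40 genes described here encode the structural and assembly proteins of the Z-disc, the M-band, titin and the thin filament of the sarcomere, without the myosins, troponins and tropomyosins. They were chosen by gene symbol, each matched by its Ensembl identifier to a row of a count table of 55487 genes, and all 40 were found. The counts come from RNA sequencing of C2C12, a mouse myoblast line that fuses into multinucleated myotubes when serum is lowered. All cells were differentiated for 5 days in medium with 2% horse serum. For the next 24 hours the 6 control libraries (horse serum 1 to 6) received 4% horse serum and the 6 treated libraries (STEM 7 to 12) received 4% STEM, a secretome product of partially differentiated human pluripotent stem cells. STEM replaced the serum, so adding the one and withdrawing the other cannot be told apart. C2C12 is a single cell line, grown without nerve or load, and the labels do not say whether the libraries of a group came from separate cultures, so p-values measure the spread between these libraries only.

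In a sarcomere, actin thin filaments are anchored at the Z-disc by alpha-actinin and interleave with myosin thick filaments, which are held in register at the M-band. Titin spans from Z-disc to M-band, nebulin runs along the thin filament, and leiomodins and tropomodulins set the length and the free end of that filament. During myotube differentiation these genes are switched on by myogenic regulatory factors together with MEF2 and serum response factor, and chaperones and muscle-specific ubiquitin ligase components then handle the proteins as they assemble.

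Depth was between 13285472 and 18254882 counts in the horse serum libraries and between 14909485 and 24536264 in the STEM libraries. The control library horse serum 6 stood apart from the rest before any gene of the sarcomere was considered singly. On the first principal component of all tested genes (44.2% of the variance) horse serum 1 to 5 lay between -35.5 and -24.6, the STEM libraries between 15.5 and 28.6, and horse serum 6 at 11.2. On the second component (19.8%) horse serum 6 lay at -53.3, outside every other library. Comparisons of STEM with horse serum were therefore made with and without it.

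The 40 genes together took 22960 to 25480 counts per 1000000 (CPM, scaled by TMM normalization) in horse serum 1 to 5, 14820 in horse serum 6 and 20060 to 26700 in the STEM libraries. Horse serum 6 was the lowest of the 6 control libraries for 37 of the 40 genes, the exceptions being Nebl, Flnc and Ankrd1. Over all tested genes that share was 33.1%. Its level was a median 47.7% of the median of horse serum 1 to 5 over the 40 genes. It ran from 5.72% for Mybpc1 and 7.35% for Myot to 103% for Flnc and 174% for Nebl, the last resting on a handful of counts. Horse serum 6 was also below every STEM library for 37 of the 40 genes, the exceptions here being Flnc, Ankrd1 and Trim55, where that share was 31.2% over all tested genes.

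**Figure D1:**
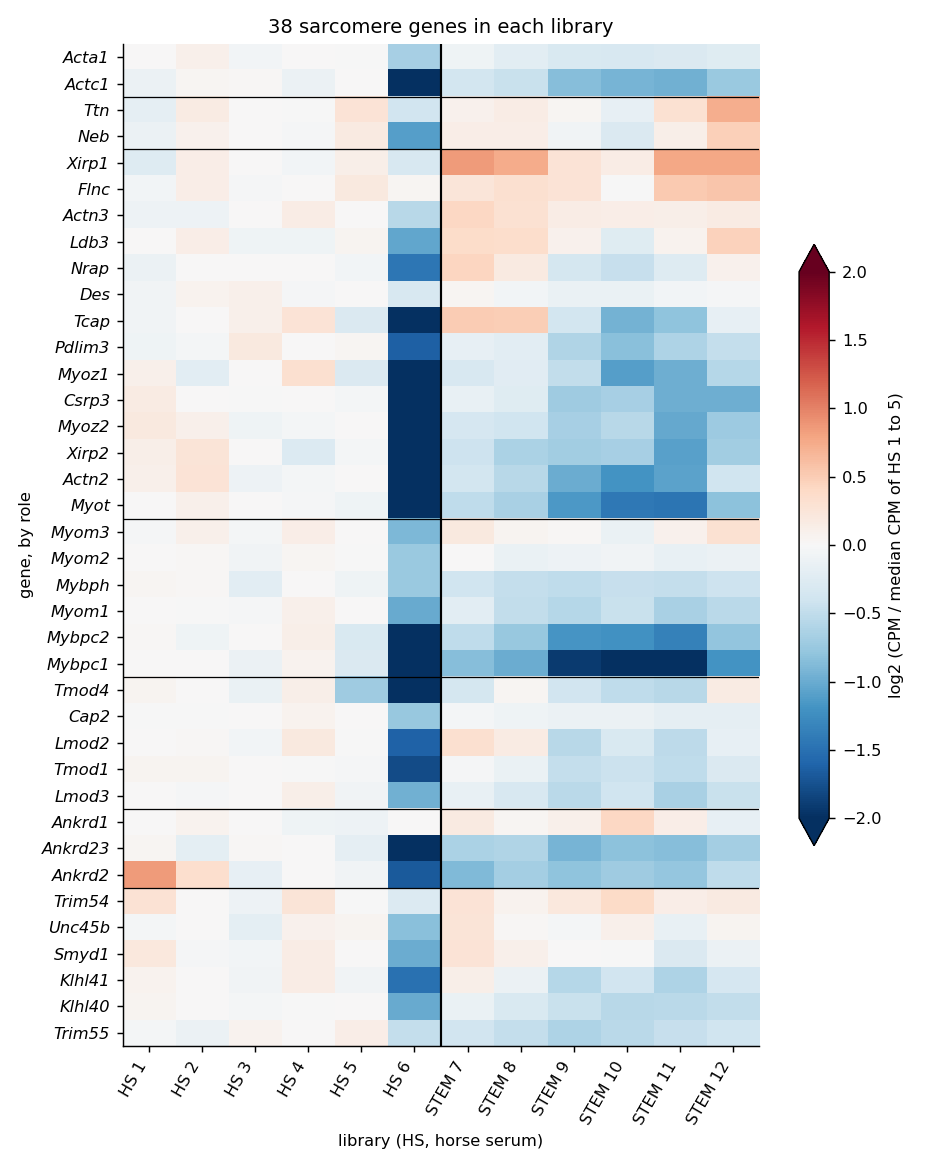
Heat map of the log2 ratio of each gene's CPM to its median in horse serum 1 to 5, with 38 genes in the vertical direction grouped by role and the 12 libraries in the horizontal direction (HS, horse serum). Nebl and Myoz3, which had few counts, are left out. Horse serum 6 is the darkest column, and within the STEM libraries the columns 9 to 11 are bluer than 7 and 8 for most of the genes that fell.

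Other values moved with this library. The 10 myotube markers summed to 4340 CPM in horse serum 6 against 7720 to 8240 in horse serum 1 to 5 and 6420 to 8100 with STEM, and their most abundant gene, Mylpf, stood at 1369 CPM against 2864 to 3122 and 2110 to 2494. The 10 markers of proliferating or reserve myoblasts summed to 1180 CPM in horse serum 6, 737 to 1050 in horse serum 1 to 5 and 582 to 686 with STEM, with Top2a as their most abundant gene and none of the 10 at 0. They did not move together in horse serum 6. Mki67, Ccnb1, Ccna2, Id1, Id3 and Spry1 lay above all of horse serum 1 to 5. Top2a (385 CPM against 261 to 413) and Cdk1 lay within their range. Pax7 (26.0 against 32.8 to 37.1) and Myf5 (15.9 against 16.5 to 21.8) lay below it. Mef2c, a transcription factor of muscle differentiation, was at 71.4 CPM in horse serum 6 and between 409 and 434 CPM in the other control libraries, whereas Myog was at 848 CPM against 877 to 944. The share of counts from mitochondrial genes was 2.43% in horse serum 6, 3.72% to 4.21% in horse serum 1 to 5 and 2.54% to 3.29% with STEM. The part of these differences in the results on the sarcomere genes was not tested. In bulk libraries fewer cells of a type and less RNA per cell cannot be told apart.

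Markers of macrophages, adipocytes and osteoblasts were low, and those of smooth muscle were not. Among the 5 macrophage markers Adgre1 had no count in any library and Cd68, the most abundant, did not pass 4.65 CPM. Among the 5 adipocyte markers Plin1 had no count and Cebpa was the most abundant, with a summed level of 35.4 to 39.9 CPM in horse serum 1 to 5, 48.3 in horse serum 6 and 27.0 to 31.9 with STEM. Among the 5 osteoblast markers Ibsp had no count and Runx2 was the most abundant, with a summed level of 11.8 to 17.8, 23.2 and 13.5 to 29.8 CPM in the same order. The 6 smooth muscle markers summed to 2230 to 2410 CPM in horse serum 1 to 5, 2680 in horse serum 6 and 2820 to 3340 with STEM. Most of that sum was Acta2, the alpha-actin of smooth muscle, at 1719 to 1959, 2301 and 2274 to 2791 CPM in the same order. Tagln was at 319 to 415, 302 and 429 to 477 CPM and Cnn1 at 10.9 to 13.9, 13.9 and 22.2 to 26.6 CPM, while the smooth muscle myosin Myh11 stayed at or below 0.723 CPM. None of the 6 was at 0 in every library, and their part in the results was not tested.

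With all 12 libraries, 6 of the 39 sarcomere genes tested (15.4%) differed between the groups, with an adjusted p of 0.05 or less in edgeR's quasi-likelihood test, against 36.4% of the 14175 genes tested. Such genes are referred to as called. Of these, 4 were higher with STEM, namely Nebl, Xirp1, Flnc and Actn3 (10.3% of the genes, against 18.9% of all genes tested), and 2 were lower, Trim55 and Mybph (5.13% against 17.4%). The groups did not overlap for 2 of the genes, Nebl and Xirp1, against 17.2% of all genes, and for 0 genes that were lower (against 8.52%). At an unadjusted p under 0.05 stood 8 genes, where 45.7% of all genes did. The median log2 fold change of the 39 genes was -0.13, and that of all genes 0.012. Myoz3, a minor myozenin with at least 2 counts in each library, was too low to be tested.

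Without horse serum 6, 24 of the 39 genes (61.5%) were called, against 50.8% of the 14267 genes then tested. Of these, 20 were lower with STEM (51.3% of the genes, against 24.5% of all genes tested) and the same 4 were higher (10.3% against 26.3%). All 6 genes called with 12 libraries were called again in the same direction. The groups did not overlap for 21 genes (53.8%, against 33.3% of all genes), 19 of them lower with STEM (against 16.5%). At an unadjusted p under 0.05 stood 25 genes, where 56.2% of all genes did. The median log2 fold change of the 39 genes was -0.25, and that of all genes 0.008. The median SE of the log2 fold change was 0.19 with 12 libraries and 0.11 without horse serum 6, and for 19 genes the SE was cut to 0.5 times its former size or less. The 18 genes called in addition all fell, and each was already below 0 in log2 fold change with 12 libraries. The 15 genes that were not called were Ttn, Neb, Ldb3, Tcap, Des, Nrap, Myom2, Myom3, Lmod2, Tmod4, Ankrd1, Smyd1, Unc45b, Trim54 and Klhl41.

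**Figure D2:**
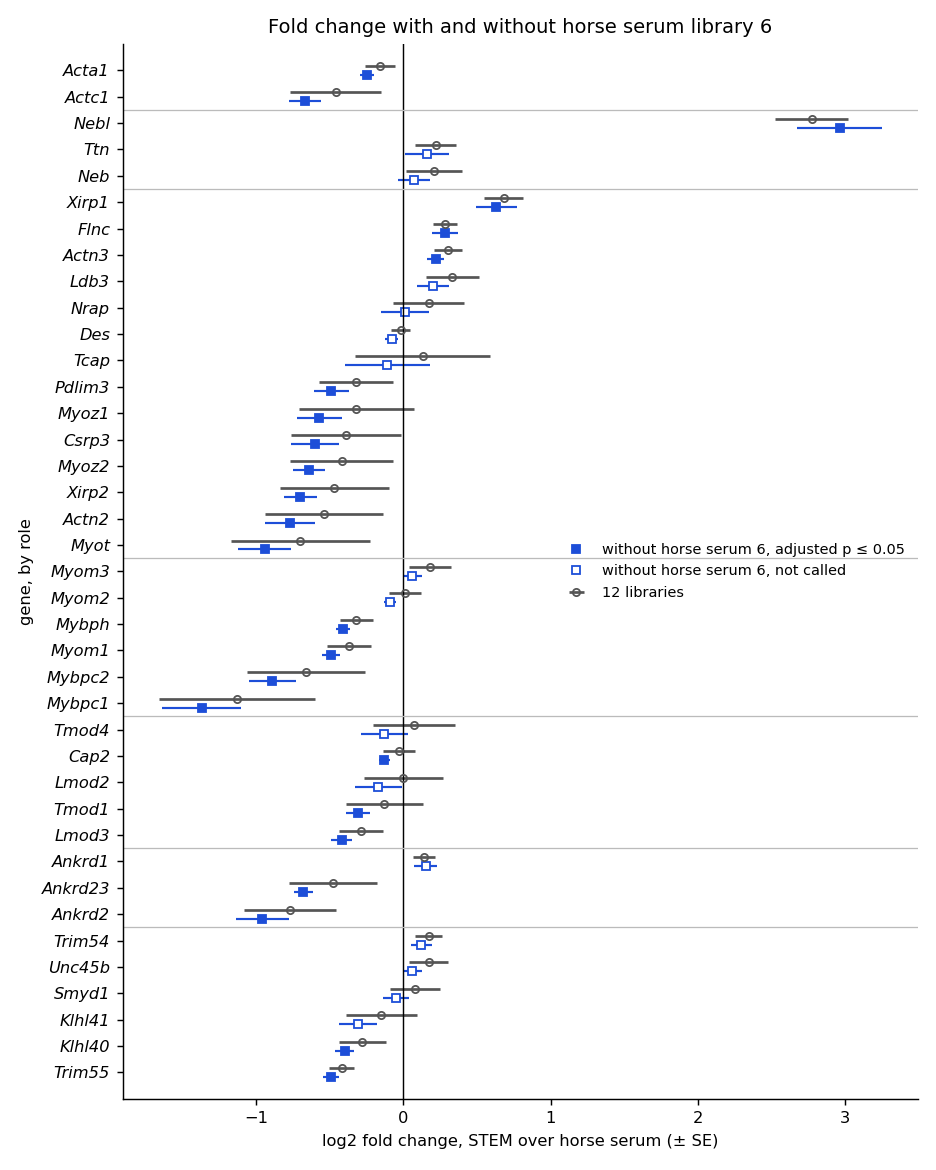
Log2 fold change (horizontal axis, STEM over horse serum) of the 39 tested genes, grouped by role, with all 12 libraries (open circles) and without horse serum 6 (squares, filled where the adjusted p was 0.05 or less). Bars are 1 SE in each direction. The squares lie to the left of the circles for all genes but Nebl, Ankrd1 and Flnc, and their bars are shorter for all but Nebl, Xirp1, Flnc, Ttn and Ankrd1. Nebl, Xirp1, Flnc and Actn3, the called genes that were higher, lie right of 0 in both cases.

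The promoters of these genes were searched for 4 motifs of muscle gene promoters in the 250 bases before each RefSeq start site, on both strands: the E-box CAGCTG (bound by myogenic regulatory factors), the MCAT element CATTCC (bound by TEAD factors), the CArG box (bound by serum response factor) and the MEF2 box. RefSeq promoter entries were at hand for 30 of the 40 genes, 37 windows in all. The E-box was in 27.0% of the 37 windows and in 13% of all 32851 promoters, and the MCAT element in 27.0% and 12.6%. The CArG box was in 16.2% and 1.47%, and the MEF2 box in 13.5% and 2.92%. Windows of nearby start sites of a gene can overlap and were not merged, as for Ldb3 and Flnc, and the CArG box in both Ldb3 windows is the same one, so that the CArG box was found in 6 of 37 windows but before 5 of the 30 genes. A CArG box preceded Acta1, Actc1, Ldb3, Myom1 and Nebl, and a MEF2 box preceded Klhl41, Myom3, Myoz2, Ttn and Xirp2. Of the 16 genes with an entry that were lower without horse serum 6, 6 had an E-box, 6 an MCAT element, 3 a CArG box and 2 a MEF2 box. Of the other 14 the numbers were 4, 4, 2 and 3. A match describes the letters of the window and is no measurement of binding.

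The windows of 3 genes that were lower with STEM without horse serum 6 (Acta1, Mybph and Xirp2) and of 2 that were not called (Ttn and Klhl41) are shown to set the motifs of both side by side. They are 5′ to 3′ on the strand of the gene, from RefSeq on GRCm38.p6, hold no annotated exon, and end at the base before the start site. Capitals mark an E-box, a CArG box or a MEF2 box. The CArG box of Acta1 begins 73 bases before the start (chr8:123894776-123895025, minus strand). Mybph has its E-box 79 bases before the start (chr1:134193198-134193447, plus strand). The MEF2 box begins 74 bases before the start in Xirp2 (chr2:67445752-67446001, plus strand), 63 in Klhl41 (chr2:69669870-69670119, plus strand) and 166 in Ttn (chr2:76982548-76982797, minus strand).
Acta1: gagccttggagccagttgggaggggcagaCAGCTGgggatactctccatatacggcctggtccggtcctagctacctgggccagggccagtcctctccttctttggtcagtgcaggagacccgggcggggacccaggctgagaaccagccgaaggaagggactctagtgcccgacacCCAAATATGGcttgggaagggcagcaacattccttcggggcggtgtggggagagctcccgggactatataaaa
Mybph: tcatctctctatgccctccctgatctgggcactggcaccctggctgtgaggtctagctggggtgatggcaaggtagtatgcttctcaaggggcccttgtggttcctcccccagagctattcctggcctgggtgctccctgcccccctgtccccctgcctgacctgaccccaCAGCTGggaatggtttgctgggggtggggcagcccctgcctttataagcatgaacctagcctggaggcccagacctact
Xirp2: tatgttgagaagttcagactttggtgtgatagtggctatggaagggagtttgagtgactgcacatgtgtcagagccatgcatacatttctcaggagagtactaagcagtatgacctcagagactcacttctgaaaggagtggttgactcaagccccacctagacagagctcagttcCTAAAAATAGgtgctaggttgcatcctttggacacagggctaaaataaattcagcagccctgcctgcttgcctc
Ttn: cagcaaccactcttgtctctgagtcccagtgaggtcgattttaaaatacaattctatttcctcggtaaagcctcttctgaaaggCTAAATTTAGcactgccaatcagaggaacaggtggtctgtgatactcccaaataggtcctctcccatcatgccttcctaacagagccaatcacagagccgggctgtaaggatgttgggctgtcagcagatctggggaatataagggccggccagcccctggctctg
Klhl41: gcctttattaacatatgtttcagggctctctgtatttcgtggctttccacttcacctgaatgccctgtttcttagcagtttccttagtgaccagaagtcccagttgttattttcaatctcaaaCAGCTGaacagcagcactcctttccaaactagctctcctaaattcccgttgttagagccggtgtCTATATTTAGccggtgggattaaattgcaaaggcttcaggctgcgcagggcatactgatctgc

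Both sarcomeric actins fell with STEM once horse serum 6 was left out (2 of 2, against 24.5% of all genes lower). With 12 libraries neither was called, against 17.4% of all genes lower. Acta1, the alpha-actin of adult skeletal muscle (chr8:123891769-123894751, GRCm38), was at 3889, 4041 and 4332 CPM (lowest, median and highest) in horse serum 1 to 5, at 2549 in horse serum 6, and at 3219, 3361 and 3817 with STEM. Each STEM library was below each of horse serum 1 to 5 and above horse serum 6. The log2 fold change was -0.16 ± 0.10 (SE, adjusted p = 0.251 by edgeR) with 12 libraries and -0.25 ± 0.048 (adjusted p = 0.000271) without horse serum 6. Actc1, the cardiac alpha-actin that embryonic and regenerating skeletal muscle also makes, was at 1410, 1536 and 1573 CPM in horse serum 1 to 5, 325 in horse serum 6, and 786, 883 and 1187 with STEM. Its groups were likewise apart except for horse serum 6, and the log2 fold changes were -0.46 ± 0.31 (adjusted p = 0.275) and -0.67 ± 0.11 (adjusted p = 0.000382). Within a library the log2 ratio of Acta1 to Actc1 was 1.44 ± 0.082 (SD, n = 5) in horse serum 1 to 5, 2.97 in horse serum 6 and 1.87 ± 0.18 (SD, n = 6) with STEM. Without horse serum 6 the ratio rose by 0.43 with STEM (two-sided exact permutation test, p = 0.00433, adjusted p = 0.00649 over 18 gene pairs), and with 12 libraries the difference of 0.18 did not pass (adjusted p = 0.722).

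**Figure D3:**
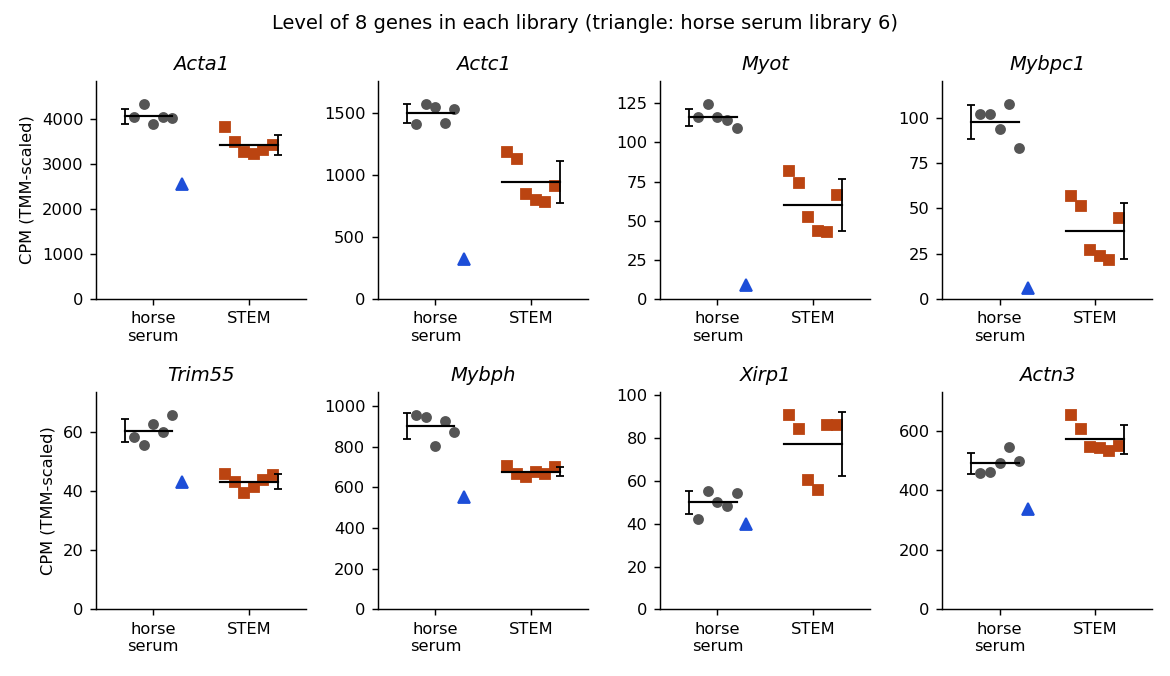
CPM of 8 genes (vertical axis from 0) in each library, with horse serum 1 to 5 as circles, horse serum 6 as a triangle and STEM 7 to 12 as squares. Lines are the means of horse serum 1 to 5 and of STEM, and error bars their SD. Horse serum 6 lies below the other control libraries in every panel, below all STEM libraries in each but Trim55, and Xirp1 and Actn3 are the panels in which STEM lies higher.

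Of the giant filament proteins, titin and nebulin did not pass the test, and Nebl was called higher on few counts. Ttn (chr2:76703980-76982547) was at 6213, 7025 and 8531 CPM in horse serum 1 to 5, 5380 in horse serum 6, and 6289, 7627 and 11590 with STEM. The groups overlapped, and the highest value was that of STEM 12. The log2 fold change was 0.22 ± 0.14 (adjusted p = 0.238, edgeR) with 12 libraries and 0.16 ± 0.15 (adjusted p = 0.421) without horse serum 6. Neb had log2 fold changes of 0.21 ± 0.19 and 0.07 ± 0.11, with adjusted p of 0.408 and 0.621. Nebl (chr2:17343909-17731464), which encodes the nebulin relative nebulette of the cardiac Z-disc and also the non-muscle LIM-nebulette, was counted per gene, so the counts do not tell these products apart. It was near the detection limit, with 2 to 7 counts in each horse serum library and 17 to 35 in each STEM library. The groups did not overlap, and the ratio of summed CPM was 6.94 (95% exact interval 4.43 to 11.4, counting error only) with all 6 control libraries and 8.05 (4.74 to 14.7) without horse serum 6. The fitted log2 fold changes were 2.77 and 2.96, with adjusted p of 1.43e-06 and 8.96e-08 by edgeR. Nebl passed the filter on low counts only through the STEM libraries, in which it is high, and it was not tested where at least 10 counts were asked of every library, so its call is no support for a rise of the group. Per length Nebl was lowest of the 40 genes in horse serum 1 to 5 and did not differ beyond the spread from Myoz3 with STEM (0.112 ± 0.0707), with 0.0135 ± 0.00386 CPM per kb of exon for Nebl in horse serum 1 to 5 (SD, n = 5) and 0.108 ± 0.0205 with STEM (SD, n = 6), where Neb had 49.0 ± 3.69 and 51.5 ± 9.02.

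The Z-disc proteins split, with 7 of the 14 tested genes lower and 3 higher with STEM without horse serum 6, and 0 lower and the same 3 higher with 12 libraries. Of all genes 24.5% were lower and 26.3% higher without horse serum 6, and 17.4% and 18.9% with 12 libraries, so the 3 that were higher are near the share of all genes. Xirp1 (chr9:120013755-120023598), an actin-bundling Xin repeat protein, was at 42.1, 50.2 and 55.3 CPM in horse serum 1 to 5, 40.1 in horse serum 6, and 55.6, 85.2 and 90.9 with STEM. Every STEM library was above every horse serum library, the closest pair differing by less than 1 CPM. The log2 fold change was 0.68 ± 0.13 (adjusted p = 0.00115, edgeR) with 12 libraries and 0.63 ± 0.14 (adjusted p = 0.00464) without horse serum 6. Its relative Xirp2 went the other way, with 22.5, 27.1 and 32.4 CPM in horse serum 1 to 5, 3.58 in horse serum 6, and 12.7, 16.9 and 20.3 with STEM. The groups were apart only without horse serum 6, where the log2 fold change was -0.70 ± 0.11 (adjusted p = 5.31e-05), against -0.47 ± 0.37 (adjusted p = 0.355) with 12 libraries. Within a library, Xirp1 rose against Xirp2, the log2 ratio being higher by 1.31 without horse serum 6 (exact permutation test, adjusted p = 0.00649) and by 0.88 with 12 libraries, where it did not pass (adjusted p = 0.234).

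Actn3 (chr19:4861216-4877909), the alpha-actinin of fast fibres, was at 458, 492 and 547 CPM in horse serum 1 to 5, 336 in horse serum 6, and 532, 548 and 653 with STEM. The highest control library lay among the STEM libraries. This gave a log2 fold change of 0.30 ± 0.095 (adjusted p = 0.0240, edgeR) with 12 libraries and 0.22 ± 0.058 (adjusted p = 0.00403) without horse serum 6. The call with 12 libraries was lost when STEM 7 was left out (0.25, adjusted p = 0.0641) and with no filter on low counts (0.29, adjusted p = 0.0790). Actn2, the alpha-actinin of cardiac and all skeletal fibres, fell over the same libraries from 87.8, 94.4 and 114 CPM in horse serum 1 to 5 to 41.4, 56.1 and 73.5 with STEM, with 13 in horse serum 6. Its log2 fold change was -0.77 ± 0.17 (adjusted p = 0.00369) without horse serum 6 and -0.54 ± 0.40 (adjusted p = 0.320) with 12 libraries. Compared to Actn3, Actn2 had a log2 ratio lower by 1.02 with STEM without horse serum 6 (exact permutation test, adjusted p = 0.00649), and that of Actn2 to the non-muscle Actn1 by 0.86 (adjusted p = 0.00649). With 12 libraries neither passed, the differences being -0.63 (adjusted p = 0.296) and -0.31 (adjusted p = 0.794).

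Flnc (chr6:29433256-29461883), the muscle filamin, was at 443, 460 and 526 CPM in horse serum 1 to 5, 472 in horse serum 6, and 459, 563 and 672 with STEM. The groups overlapped, and horse serum 6 lay within the range of the other control libraries. Its log2 fold change was 0.28 both with 12 libraries (SE 0.082, adjusted p = 0.0152, edgeR) and without horse serum 6 (SE 0.089, adjusted p = 0.0205). The broadly expressed filamin Flna rose by 0.39 without horse serum 6 (adjusted p = 5.17e-06) and was not called with 12 libraries (0.25, adjusted p = 0.0971). The ratio of Flnc to Flna did not pass the test in either case (log2 differences of -0.13 and -0.01, exact permutation adjusted p = 0.214 and 0.985).

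The 7 Z-disc genes that fell without horse serum 6 were Xirp2, Myoz2, Myot, Actn2, Pdlim3, Myoz1 and Csrp3. Myoz2, a calcineurin-binding myozenin, was at 209, 222 and 255 CPM in horse serum 1 to 5, 38.4 in horse serum 6, and 110, 146 and 176 with STEM, with no overlap between STEM and horse serum 1 to 5. Its log2 fold change was -0.64 ± 0.11 (adjusted p = 0.00088, edgeR) without horse serum 6 and -0.42 ± 0.35 (adjusted p = 0.381) with 12 libraries. Myot, which encodes the actin-bundling myotilin, had the lowest log2 fold change of the Z-disc genes, -0.94 ± 0.18 without horse serum 6 (adjusted p = 0.00144), from a median of 116 CPM in horse serum 1 to 5 to 59.3 with STEM, and -0.70 ± 0.47 with 12 libraries (adjusted p = 0.275). Pdlim3, a PDZ-LIM protein that binds alpha-actinin, Myoz1 and Csrp3, the muscle LIM protein, had log2 fold changes of -0.49, -0.57 and -0.60. With 12 libraries they had -0.32, -0.32 and -0.39 and were not called (adjusted p = 0.355, 0.550 and 0.453). For Myoz1 the groups overlapped.

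Among the Z-disc genes that were not called, Des, the muscle intermediate filament, varied little, between 1767 and 1993 CPM in horse serum 1 to 5, 1490 in horse serum 6, and between 1697 and 1908 with STEM. Its log2 fold change was -0.02 ± 0.065 with 12 libraries and -0.08 ± 0.045 without horse serum 6 (adjusted p = 0.801 and 0.177, edgeR). The broader intermediate filament Vim fell by 0.54 and by 0.55 (adjusted p = 7.84e-06 and 1.07e-07). The log2 ratio of Des to Vim thus rose from -0.35 ± 0.12 (SD, n = 5) in horse serum 1 to 5, with -0.63 in horse serum 6, to 0.12 ± 0.078 (SD, n = 6) with STEM. The ratio did not overlap between the groups with or without horse serum 6 (exact permutation test, adjusted p = 0.0195 and 0.00649). Tcap, the titin cap, lay between 26.7 and 72.7 CPM with STEM, and its log2 fold change was 0.13 ± 0.46 with 12 libraries and -0.11 ± 0.29 without horse serum 6. Ldb3, which links alpha-actinin to signalling kinases, and Nrap, a scaffold of nascent myofibrils, had log2 fold changes of 0.20 ± 0.11 and 0.01 ± 0.16 without horse serum 6, with adjusted p of 0.172 and 0.973, and of 0.33 ± 0.18 and 0.17 ± 0.24 with 12 libraries, with adjusted p of 0.167 and 0.623.

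Of the 6 M-band and myosin-binding genes, 4 fell without horse serum 6, 1 of them with 12 libraries too, and none rose. The shares of all genes that were lower were 24.5% and 17.4%, and the 1 gene with 12 libraries is near the latter. Mybph (chr1:134193448-134201232), a myosin-binding protein H, was at 805, 927 and 956 CPM in horse serum 1 to 5, 553 in horse serum 6, and 650, 672 and 706 with STEM. The STEM libraries lay close together, all below horse serum 1 to 5 and above horse serum 6. Mybph had a log2 fold change of -0.32 ± 0.11 (adjusted p = 0.0296, edgeR) with 12 libraries and -0.41 ± 0.047 (adjusted p = 7.29e-07) without horse serum 6. The call with 12 libraries was lost when any of horse serum 1, 2, 4 or 5 or of STEM 8, 9, 10 or 11 was left out, with log2 fold changes between -0.32 and -0.28. Annotated exons of Adora1 on the opposite strand cover 49.9% of the Mybph exon bases. Adora1 itself had a mean of 1.23 CPM in horse serum 1 to 5 and 1.66 with STEM.

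Myom1, the myomesin that crosslinks thick filaments, was at 249, 253 and 270 CPM in horse serum 1 to 5, 125 in horse serum 6, and 161, 177 and 218 with STEM. It lay apart in the 2 groups but for horse serum 6, with log2 fold changes of -0.49 ± 0.060 (adjusted p = 5.24e-06, edgeR) without that library and -0.37 ± 0.15 (adjusted p = 0.0823) with it. Myom2 had log2 fold changes of -0.09 ± 0.041 (adjusted p = 0.0931) and 0.01 ± 0.11 (adjusted p = 0.929). The log2 ratio of Myom1 to Myom2 was lower with STEM both with 12 libraries (by 0.37, exact permutation adjusted p = 0.0195) and without horse serum 6 (by 0.42, adjusted p = 0.00649). Myom3 was not called, with 0.06 ± 0.064 without horse serum 6 and 0.18 ± 0.14 with 12 libraries.

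The slow myosin-binding protein C gene, Mybpc1 (chr10:88518279-88605152), had the lowest log2 fold change of the 39 genes. It was at 83.6, 102 and 108 CPM in horse serum 1 to 5, 5.83 in horse serum 6, and 21.2, 35.8 and 56.8 with STEM. No STEM library reached horse serum 1 to 5, and the log2 fold change was -1.37 ± 0.27 (adjusted p = 0.00193, edgeR) without horse serum 6 and -1.13 ± 0.53 (adjusted p = 0.124) with it. The fast gene Mybpc2 fell by 0.89 ± 0.16 without horse serum 6 (adjusted p = 0.000924) and was not called with 12 libraries (-0.66 ± 0.40, adjusted p = 0.222). Mybpc1 fell further than Mybpc2 when horse serum 6 was left out, with a log2 ratio lower by 0.57 (exact permutation test, adjusted p = 0.00649), and the difference of -0.38 with 12 libraries did not pass (adjusted p = 0.248).

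The genes of thin filament length and ends fell by small amounts or were not called. Without horse serum 6, 3 of 5 fell (against 24.5% of all genes), and with 12 libraries none was called in either direction (against 36.4% of all genes). Lmod3, a leiomodin that nucleates and lengthens thin filaments, was at 110, 116 and 126 CPM in horse serum 1 to 5, 59.6 in horse serum 6, and 73.9, 86.0 and 104 with STEM. Lmod3 had a log2 fold change of -0.42 ± 0.071 (adjusted p = 0.000207, edgeR) without horse serum 6 and -0.29 ± 0.15 (adjusted p = 0.151) with 12 libraries. Tmod1, which caps the pointed end, was at 129, 131 and 136 CPM in horse serum 1 to 5, 37.7 in horse serum 6, and 91.8, 102 and 129 with STEM. STEM 7 came within 1 CPM of the control libraries, and the log2 fold change was -0.31 ± 0.081 (adjusted p = 0.00561) without horse serum 6 and -0.13 ± 0.26 (adjusted p = 0.727) with 12. Opposite-strand exons of Tstd2 cover 32.6% of the Tmod1 exon bases, and Tstd2 had a mean of 39.3 CPM in horse serum 1 to 5 and 49.1 with STEM. Cap2, an actin-recycling protein of muscle, fell by 0.13 ± 0.038 (adjusted p = 0.00708) without horse serum 6 and stood at -0.03 ± 0.11 (adjusted p = 0.859) with 12 libraries. Lmod2 and the muscle-specific Tmod4 were not called, with -0.17 ± 0.16 and -0.13 ± 0.16 without horse serum 6 and 0.00 ± 0.27 and 0.07 ± 0.28 with 12 libraries.

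Of the titin-associated ankyrin repeat genes, Ankrd23 and Ankrd2 fell without horse serum 6 (2 of 3, against 24.5% of all genes), Ankrd1 was not called, and with 12 libraries none of the 3 was. Ankrd23 was at 108, 124 and 127 CPM in horse serum 1 to 5, 26.1 in horse serum 6, and 64.9, 73.6 and 81.9 with STEM. Its groups were well apart except for horse serum 6, with log2 fold changes of -0.68 ± 0.064 (adjusted p = 2.56e-07, edgeR) and, with 12 libraries, -0.48 ± 0.30 (adjusted p = 0.237). Its exons lie for 78.2% under those of Gm42417 on the same strand, so its counts depend on how shared reads were assigned. Gm42417 had a mean of 0.0583 CPM in horse serum 1 to 5 and 0.0520 with STEM. Ankrd2 was at 74.0, 83.3 and 150 CPM in horse serum 1 to 5, 26.0 in horse serum 6, and 45.4, 49.8 and 58.3 with STEM. Its highest value was that of horse serum 1, and its log2 fold change was -0.96 ± 0.18 (adjusted p = 0.00159) without horse serum 6 and -0.77 ± 0.31 (adjusted p = 0.0737) with 12 libraries. Ankrd1, a cardiac ankyrin repeat protein that is induced by stretch, was in horse serum 6 at a level within the other control libraries, at 774 CPM against 717 to 809 in the other control libraries, and STEM gave 681 to 1021. Its log2 fold change was 0.15 ± 0.078 (adjusted p = 0.129) without horse serum 6 and 0.14 ± 0.076 (adjusted p = 0.158) with 12 libraries. The log2 ratio of Ankrd1 to Ankrd2 rose by 1.05 without horse serum 6 (exact permutation test, adjusted p = 0.00649), and with 12 libraries the difference of 0.74 did not pass (adjusted p = 0.214).

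Among the assembly chaperones and ubiquitin ligase components, of 6 genes, Trim55 was lower with 12 libraries and Trim55 and Klhl40 without horse serum 6 (against 17.4% and 24.5% of all genes lower), and the others were not called. The 1 gene with 12 libraries is near the share of all genes. Trim55 (chr3:19644474-19692421), the ubiquitin ligase MuRF2, was at 55.6, 60.1 and 65.8 CPM in horse serum 1 to 5, 43.2 in horse serum 6, and 39.3, 43.5 and 45.9 with STEM. All STEM libraries were below horse serum 1 to 5, with horse serum 6 among them. The log2 fold change was -0.42 ± 0.084 (adjusted p = 0.00132, edgeR) with 12 libraries and -0.49 ± 0.053 (adjusted p = 4.07e-07) without horse serum 6. Its relative Trim54, the ligase MuRF3, had log2 fold changes of 0.17 ± 0.089 and 0.12 ± 0.072 (adjusted p = 0.142 and 0.195). The log2 ratio of Trim54 to Trim55 was -0.72 ± 0.22 (SD, n = 5) in horse serum 1 to 5, -0.60 in horse serum 6 and -0.11 ± 0.15 (SD, n = 6) with STEM. It did not overlap between the groups and passed with and without horse serum 6 (exact permutation test, adjusted p = 0.0195 and 0.00649). Horse serum 6 thus lay among the other control libraries in this ratio, although it was low in Trim55 itself.

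Klhl40, a Kelch protein that stabilises nebulin and Lmod3, was at 154, 159 and 164 CPM in horse serum 1 to 5, 78.6 in horse serum 6, and 108, 115 and 146 with STEM. The groups were apart but for horse serum 6, with a log2 fold change of -0.40 ± 0.066 (adjusted p = 0.000116, edgeR) without that library and -0.28 ± 0.16 (adjusted p = 0.188) with it. Its relative Klhl41 was not called (-0.31 ± 0.13, adjusted p = 0.0611, without horse serum 6, and -0.15 ± 0.24, adjusted p = 0.654, with 12 libraries), and the ratio of both did not pass either (-0.08, exact permutation adjusted p = 0.377). Opposite-strand exons cover 21.6% of the Klhl40 exon bases (Gm47108, a mean of 0.201 CPM in horse serum 1 to 5 and 0.287 with STEM) and 26.6% of those of Trim54 (Gm15469, listed at 0). The methyltransferase Smyd1 and the myosin chaperone Unc45b had log2 fold changes of -0.05 ± 0.087 and 0.06 ± 0.066 without horse serum 6, and of 0.08 ± 0.17 and 0.17 ± 0.13 with 12 libraries.

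Across the 18 ratios of related genes within a library, 4 passed with 12 libraries (exact permutation test, adjusted p = 0.0195 each) and 12 without horse serum 6 (adjusted p = 0.00649 each). The 4 were Neb to Nebl, Myom1 to Myom2, Trim54 to Trim55 and Des to Vim. The first of them repeats the difference in Nebl, under the same limit of few counts, since Neb itself was not called, and it is also among the 12. The smallest p that 6 against 6 or 6 against 5 libraries can give is 0.00216. Horse serum 6 lay beyond all STEM libraries, on the same side, in the ratios of Acta1 to Actc1 (2.97 against 1.64 to 2.07), Actn2 to Actn3 (-4.68 against -3.71 to -2.94), Xirp1 to Xirp2 (3.44 against 1.69 to 2.75), Ankrd1 to Ankrd2 (4.89 against 3.54 to 4.32) and Csrp3 to Csrp2 (-1.89 against -0.48 to 0.17). The same held for Mybpc1 to Mybpc2, Actn2 to Actn1, Cap2 to Cap1 and Flnc to Flna, the last of which did not pass the test. In these ratios the STEM mean lay between horse serum 6 and the mean of the other control libraries. Horse serum 6 lay on the other side of horse serum 1 to 5 from the STEM mean in the ratios of Lmod2 to Lmod3 (-0.44, against means of 0.25 in horse serum 1 to 5 and 0.46 with STEM), Klhl40 to Klhl41 (-1.45, against -1.93 and -2.01), Tmod4 to Tmod3 (-6.23, against -4.34 and -4.29), Myoz1 to Myoz2 (-5.21, against -4.65 and -4.59) and Des to Vim. A factor common to both genes of a pair does not move such a ratio, apart from the prior count added to low genes.

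**Figure D4:**
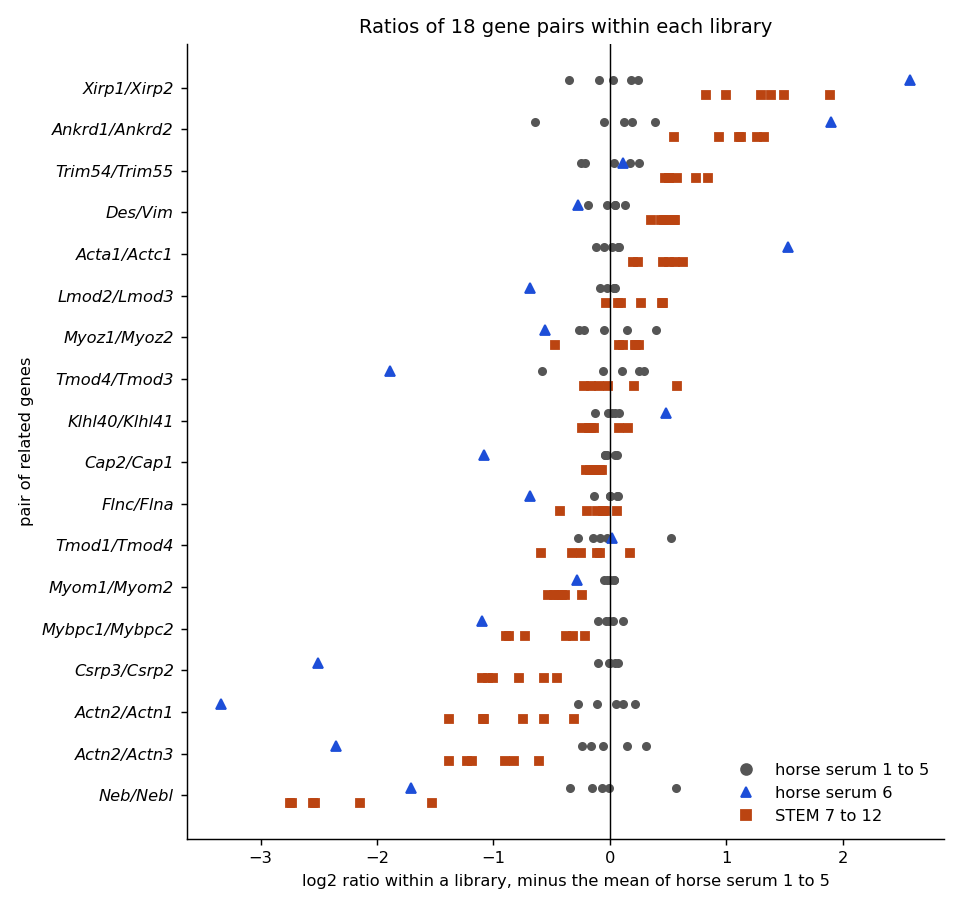
Log2 ratio of 18 gene pairs within each library, as the difference from the mean of horse serum 1 to 5 (horizontal axis), with 1 line per pair, ordered by the difference between STEM and horse serum 1 to 5. Circles are horse serum 1 to 5, triangles horse serum 6 and squares STEM 7 to 12. STEM and horse serum 6 lie on opposite sides of 0 for Des/Vim, and in Trim54/Trim55 horse serum 6 lies among the circles.

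The STEM libraries were not alike. STEM 7 was the highest of them for 28 of the 40 genes and STEM 12 for 7, and the lowest were STEM 11 for 15 and STEM 10 for 14. In STEM 12 titin reached 11590 CPM and Neb 1769. The median coefficient of variation over the 38 genes other than Nebl and Myoz3 was 14.2% in the STEM libraries and 7.16% in horse serum 1 to 5. Across the 39 tested genes the log2 fold change without horse serum 6 had a Spearman correlation of 0.38 with exonic length (0.07 over all tested genes). The longest, Ttn and Neb, were among those that were not called. Next in length came Nebl, with the highest log2 fold change but few counts. Xirp2 and Myom1 followed and were both called lower. The correlation is a description across genes that share the same libraries.

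Per length, the order of the levels was led by the sarcomeric actins and Des, and not by titin or nebulin. In horse serum 1 to 5 Acta1 had 2646 ± 105.7 CPM per kb of exon (mean ± SD, n = 5) and Actc1 926 ± 47.3. Des followed with 502 ± 24.4, Mybph with 387 ± 27.1, Ankrd1 with 262 ± 13.2 and Klhl41 with 241 ± 15.6. Titin, the gene with the most counts of all 40, had 62.8 ± 7.65 CPM per kb, close to Klhl40 with 63.5 ± 1.43 and to Myoz2 with 66.7 ± 5.43, which lie within its spread. With STEM (n = 6) Acta1 had 2228 ± 142, Actc1 584 ± 106, Des 477 ± 21.1, and Mybph (291 ± 9.20) and Ankrd1 (291 ± 38.5) no longer differed beyond their spread. Actn3 had 169 ± 12.4 CPM per kb in horse serum 1 to 5 against 25.7 ± 2.66 for Actn2, and 197 ± 16.4 against 15.1 ± 3.76 with STEM.

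**Figure D5:**
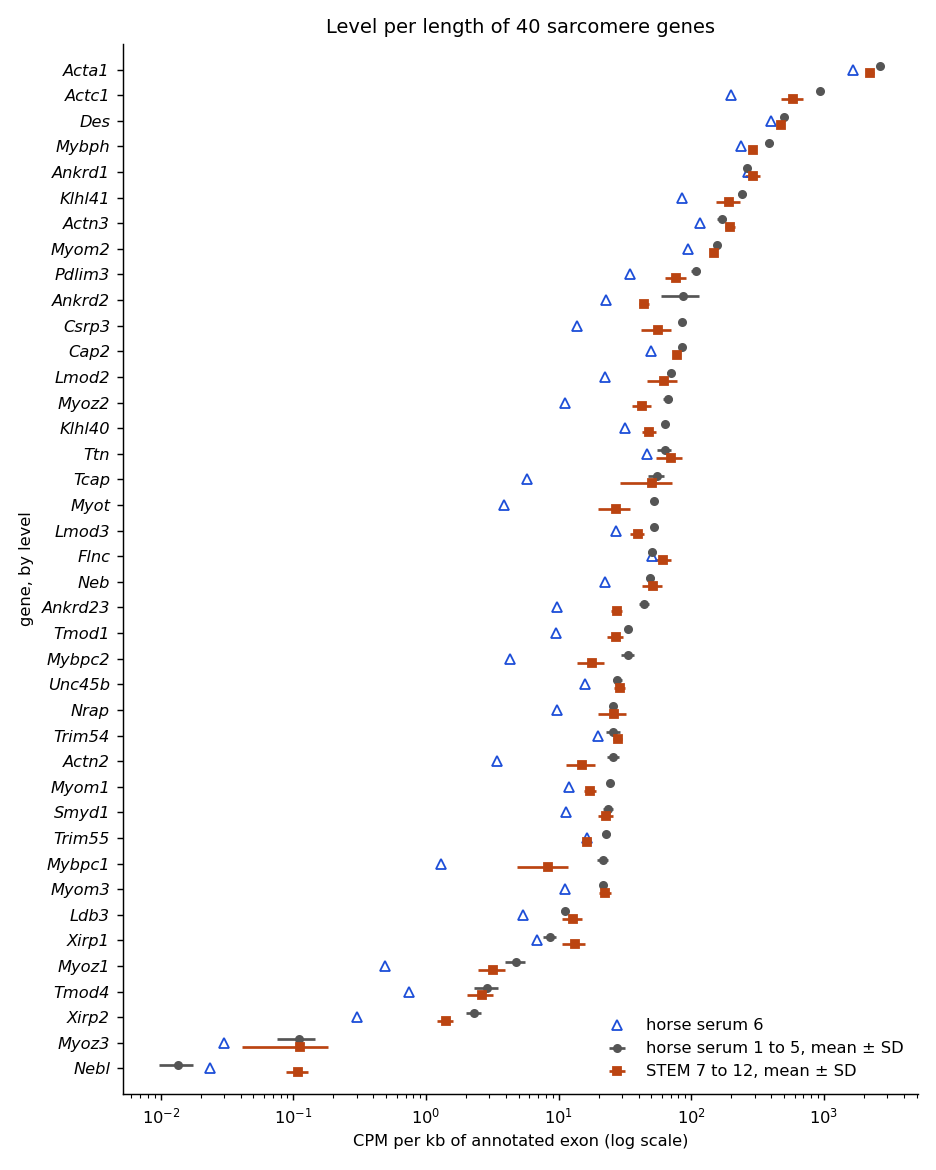
CPM per kb of annotated exon (log scale) of the 40 genes, ordered by their level in horse serum 1 to 5 (circles, mean ± SD of 5), with STEM (squares, mean ± SD of 6) and horse serum 6 (triangles). The levels span from 0.0135 for Nebl to 2646 for Acta1 in horse serum 1 to 5, and the triangles lie left of both groups for most genes.

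Other genes of the sarcomere were read in the same fits, in which 18.9% of all genes were higher and 17.4% lower with 12 libraries, and 26.3% and 24.5% without horse serum 6. Of 23 tested myosins, troponins and tropomyosins, 5 were lower and 1 higher with STEM with 12 libraries, and 18 lower and 1 higher without horse serum 6, with medians of -0.27 and -0.39. The 5 lower genes with 12 libraries are near the share of all genes. The gene that rose was Myh4, the fast IIb myosin heavy chain, by 1.25 ± 0.32 (adjusted p = 0.0105, edgeR) and 1.05 ± 0.12 (adjusted p = 3.21e-05). Myl2, the slow and cardiac regulatory light chain, fell by 2.03 ± 0.50 (adjusted p = 0.00879) and 2.27 ± 0.19 (adjusted p = 4.78e-06). Tnni3, the cardiac troponin I, fell by 1.40 with 12 libraries and fell by 1.33 without horse serum 6, and Myl1, Myl4 and Tnnc1 fell by 0.59, 0.46 and 0.39 without horse serum 6 (adjusted p = 1.16e-07, 2.75e-07 and 4.98e-07). With 12 libraries these 3 were not called, at -0.40, -0.29 and -0.26 (adjusted p = 0.303, 0.321 and 0.188).

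Of 30 tested genes of other sarcomere-associated proteins, 12 were higher with STEM in both fits, and 3 were lower with 12 libraries and 8 without horse serum 6, the last number being near the share of all genes. The genes that rose included Obsl1, the obscurin-like protein of the M-band, by 0.50 and 0.47 (adjusted p = 3.85e-05 and 4.87e-06, edgeR), the formin Fhod3, which takes part in thin filament assembly, by 0.49 and 0.45, and the PDZ-LIM gene Pdlim7 by 0.27 and 0.26. Those that fell included Trim63, the ubiquitin ligase MuRF1, by 0.76 and 0.89 (adjusted p = 0.00347 and 9.27e-09) and Cavin4, a muscle caveolar protein, by 0.49 and 0.62 (adjusted p = 0.0172 and 1.53e-09).

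Of 15 broadly expressed relatives of the sarcomere genes, 3 were higher and 4 lower with 12 libraries, and 6 higher and 4 lower without horse serum 6. The numbers lower without horse serum 6 and higher with 12 libraries are near the shares of all genes, and Acta2 and Lmod1 also stand among the smooth muscle markers. Vim and Csrp1 fell and Acta2 rose in both fits, Csrp1 by 0.58 each time and Acta2 with log2 fold changes of 0.34 and 0.40. Actb, the cytoplasmic beta-actin, was at 4081 CPM in horse serum 6, 2555 to 2896 in horse serum 1 to 5 and 2885 to 3113 with STEM. Cap1, the broad relative of Cap2, was not called (0.00 ± 0.035 without horse serum 6 and -0.06 ± 0.057 with 12 libraries).

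Of 14 transcription factors of muscle and actin-dependent transcription, 3 were higher and 3 lower with 12 libraries, and 5 of each without horse serum 6, and the numbers with 12 libraries are near the shares of all genes. Srf, the serum response factor, rose by 0.24 and 0.26 (adjusted p = 0.00241 and 0.000328, edgeR), and the myogenic factor Myf5 fell by 0.42 with 12 libraries and fell by 0.45 without horse serum 6. Mef2c had a log2 fold change of 0.02 with 12 libraries (adjusted p = 0.968), and without horse serum 6 its log2 fold change was -0.19 (adjusted p = 0.00344). Of the 10 myotube markers, 2 were higher and 2 lower with 12 libraries, and 3 higher and 4 lower without horse serum 6, the numbers with 12 libraries being near the shares of all genes (18.9% and 17.4%). The fusion gene Mymk rose by 0.36 and 0.32, the myogenin gene Myog fell by 0.29 and 0.30, and the perinatal myosin Myh8 fell by 1.25 and 1.48. Of the 10 markers of proliferating or reserve myoblasts, 2 were higher and 6 lower in both fits, with Top2a lower by 0.65 and 0.60 and Id1 higher by 0.63 and 0.83. Of the 5 tested smooth muscle markers, 3 were higher and 1 lower in both fits, Cnn1 rising by 0.91 and 0.94. Without horse serum 6 the shares of all genes were 26.3% higher and 24.5% lower. The 2 higher myoblast markers and the 1 lower smooth muscle marker are near the shares of all genes. Of the 2 tested adipocyte markers Pparg was lower in both fits (-0.84 and -0.9). Without horse serum 6, the macrophage marker Csf1r (1 to 30 counts per library) and the osteoblast marker Runx2 were higher. Their log2 fold changes were 1.45 and 0.66 (adjusted p = 0.00234 and 0.0305, edgeR). With 12 libraries Csf1r was not tested and Runx2 was not called (0.51, adjusted p = 0.0873). The groups overlapped for both genes without horse serum 6. Csf1r was at 0.137 to 0.543 CPM in horse serum 1 to 5 and at 0.403 to 1.22 with STEM. It passed the filter on low counts only through the STEM libraries, in which it is high, so its call is no support for a rise.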

How the data were processed

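RNA was sequenced from 12 C2C12 libraries, 6 with horse serum and 6 with STEM, from stranded, ribosome-depleted total RNA libraries read in pairs. The authors deposited raw read counts per Ensembl gene on GRCm38, with no normalization. The submitters' processing notes name STAR 2.7.3a, featureCounts 1.6.3 and DESeq2 1.26.0. The annotation release and the strand setting are not given in the sources used here. Gene symbols, exon lengths and overlaps came from GENCODE M21 (GRCm38), which held 55227 of the 55487 genes; the others carried 0.00268% of the counts.

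Libraries were grouped by their labels. Between libraries of a group, chi-square per degree of freedom was 3.54 to 76.6, so no pair agreed within sampling noise. Pairs with horse serum 6 gave 62.8 to 76.6, and the highest value of the other pairs was 20.9 (STEM 10 and STEM 12). Differential expression was tested with edgeR 4.0.16 (robust quasi-likelihood fit, TMM, filterByExpr; R 4.3.3), with Benjamini-Hochberg adjustment over all tested genes and a threshold of 0.05, and refitted without horse serum 6. CPM is the count over total count times TMM factor. Log2 ratios of 18 gene pairs (prior count 2) were compared by two-sided exact permutation tests. Depth sets counting error only for the lowest genes. The scripts were tested on simulated data. DESeq2 1.42.0, limma-voom (limma 3.58.1), other scalings, filters and thresholds, and leaving out each library were tried as alternatives.

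The 40 genes, the other gene lists and the pairs were chosen with earlier results of these data known. Full values are given for genes called with 12 libraries, the 2 with the lowest p without horse serum 6 in each of 7 role groups and the 3 with the lowest p in each direction. From every other list, up to 3 called genes with the lowest p in each fit are named, with the paralogues used in the ratios. A gene that this rule would name is not reported here. Ankrd1, Actn2, Mybpc1, Mybpc2, Myot and the other genes given outside this rule were chosen after their values were seen.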

Additional observations from a re-analysis of the deposited data

Results flagged for a closer look

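In each group of 6 libraries the gap between an end library and its neighbour was set against the whole range, with a ratio above Dixon's 95% critical value taken as standing apart. Of 80 gene and group combinations of the 40 genes, 29 passed, and all 29 were low values of horse serum 6. The share of all genes that would pass was not determined, so the 29 have no reference here. Horse serum 6 was the lowest control library for 37 of the 40 genes and for 33.1% of all tested genes. The 29 are not independent, since they come from the same library.

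The CPM in horse serum 6 were 2550 for Acta1 and 325 for Actc1 among the actins, and 594 for Neb. Of the Z-disc genes they were 13 for Actn2, 336 for Actn3, 33.1 for Ldb3, 0.921 for Myoz1, 38.4 for Myoz2, 5.42 for Tcap, 36.4 for Csrp3, 176 for Pdlim3, 8.54 for Myot, 3.58 for Xirp2 and 53.5 for Nrap. Of the M-band and myosin-binding genes they were 125 for Myom1, 830 for Myom2, 67.8 for Myom3, 5.83 for Mybpc1, 15.5 for Mybpc2 and 553 for Mybph. Of the genes of thin filament length they were 43.9 for Lmod2, 59.6 for Lmod3, 37.7 for Tmod1 and 207 for Cap2. Of the ankyrin repeat, chaperone and ligase genes they were 26.1 for Ankrd23, 51.8 for Smyd1, 70.6 for Unc45b, 78.6 for Klhl40 and 215 for Klhl41. The ratio of gap to range was highest for Tmod1, at 0.958, where the next library stood at 129 CPM. Estimated quality weights gave horse serum 6 a weight of 0.111, against 0.771 to 1.84 for the other 11 libraries. Why this library stands apart was not tested.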

How the results depend on the processing

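Of the alternatives tried, leaving out horse serum 6 moved the number of called sarcomere genes and the number lower most. The number higher moved most at an adjusted p of 0.01, from 4 to 2. The number of all genes called moved most with quality weights, from 5155 to 7283, against 7245 without horse serum 6. Leaving out any library in turn gave 5 to 24 called genes, 3 to 5 higher and 1 to 20 lower, and without horse serum 6 itself 24, 4 and 20. Over the other 11 libraries the range was 5 to 7 called. Leaving out STEM 7 took away the call of Actn3 (0.25, adjusted p = 0.0641), and leaving out STEM 12 added Ankrd1 (0.20, adjusted p = 0.0314). Quality weights in limma-voom gave 22 called genes, 18 of them lower. An adjusted p of 0.01 left 3 called genes, 2 higher and 1 lower. The number lower was 1 with no filter, 1 with limma-voom and 4 with DESeq2, which added Myom1 and Ankrd2 (-0.37 and -0.78, adjusted p = 0.0454 and 0.0476). Mybph was lost with no filter (adjusted p = 0.0962) and with limma-voom (0.0509), and Actn3 with no filter (0.0790). By total counts the median level of horse serum 6 was 52.4% of that of horse serum 1 to 5. Other scalings moved the median of all genes between -0.0082 and 0.0311, against 0.0121 with TMM.

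Signs changed for some genes that were not called with 12 libraries. Lmod2 (0.00 with 12 libraries) was at 0.00 with DESeq2 size factors, with no filter and with DESeq2, -0.01 with at least 10 counts, -0.02 with upper quartile scaling and -0.16 with quality weights. Myom2 turned to -0.01 with upper quartile scaling and -0.08 with quality weights. With quality weights Tcap turned to -0.05, Tmod4 to -0.07 and Smyd1 to 0.00, and Myoz1 turned to 0.07 with limma-voom. Over libraries left out in turn, Tcap ran from -0.11 to 0.25, Lmod2 from -0.17 to 0.08, Tmod4 from -0.13 to 0.18, Myom2 from -0.09 to 0.04, Des from -0.08 to 0.00, Cap2 from -0.13 to 0.01, Smyd1 from -0.05 to 0.14, the ratio of Flnc to Flna from -0.13 to 0.05 and that of Cap2 to Cap1 from -0.13 to 0.10. The ratio of Cap2 to Cap1 went from 0.05 (adjusted p = 1) to -0.13 without horse serum 6, where it passed the test. The cause of these changes was not tested. No paired analysis was possible because the replicate numbers 1 to 6 and 7 to 12 are not shared between the groups. Depth limits Nebl, Myoz1, Tmod4 and Myoz3, which had few counts.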
